A study of Mus musculus with 8 samples.

Results

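Among the genes counted in mouse Th17 cells cultured with different cytokine mixes, 47 were close to silent in one mix and clearly read in the other. The genes were chosen by their read counts in the 4 culture libraries. They had 5 or fewer reads summed over the KO and WT libraries of cells cultured with TGF-β and IL-6 (the TGF-β mix), and 50 or more reads in each of the KO and WT libraries of cells cultured with IL-23, IL-1β and IL-6 (the IL-23 mix). They are 47 of the 55341 entries of a culture file and 47 of the 10390 genes with 50 or more reads in each library of the IL-23 mix. The same thresholds held for 55 genes, of which 8 were left out by name, most of them predicted genes or cDNA clones without an established symbol. The opposite thresholds, silent with IL-23 and on with TGF-β, held for 5 genes (Daw1, Tmeff1, Olfm2, Gli3 and Samd4). Since the difference between the mixes chose the 47 genes, it is given as a description with no test. The mixes differ in TGF-β, IL-1β and IL-23 together, so the parts of these cytokines cannot be told apart. The phrases with IL-23 and with TGF-β stand for the whole mixes.

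KO cells came from Cd4_cre Rora_fl/fl mice, in which a Cre recombinase driven by the T cell gene Cd4 acts on floxed alleles of Rora, and WT cells came from Rora_fl/fl mice, which carry the floxed alleles and no Cre. Rora encodes RORα, a nuclear receptor of the Th17 lineage. For the cultures, naive CD4+ T cells of each genotype were stimulated for 4 days on plates coated with antibodies to CD3 and CD28, in the IL-23 mix or in the TGF-β mix, with 1 library for each genotype and mix. For the colon libraries, Tcrbd-/- mice, which lack T cells of their own but keep B cells, myeloid cells and stroma, received naive CD4+ T cells from KO or WT donors. After 6 weeks CD4+ T cells were isolated from their colons, giving 2 KO and 2 WT libraries. Before RNA extraction all cells were stimulated with PMA and ionomycin, which activate T cells, for 2 hours.

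Libraries held 13176752 to 15922696 reads assigned to genes. Rora itself had 906 reads in the KO and 2307 in the WT library of the IL-23 mix, 3020 in the KO and 7881 in the WT library of the TGF-β mix, and 1958 and 2305 in the KO colon against 3104 and 4067 in the WT colon. It was therefore lower in each KO library than in its WT counterparts. A list of 16 conventional T cell markers summed to 8524 CPM (reads scaled to library size) in the KO and 8564 CPM in the WT library of the IL-23 mix, and to 7979 CPM in the KO and 8328 CPM in the WT library of the TGF-β mix. The colon list sum was 10887 and 10746 CPM in the KO and 13873 and 13400 CPM in the WT libraries, so T cell identity genes were abundant in every library. CPM values were scaled separately for the culture and the colon tables, and any level set across them carries that limit.

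Naive CD4+ T cells become Th17 cells under IL-6 together with either TGF-β or IL-1β and IL-23. Cells made with TGF-β tend to hold regulatory features, whereas IL-1β and IL-23 favour cells that make inflammatory cytokines and can drive tissue disease. TGF-β acts through SMAD proteins and represses many genes, while IL-6 and IL-23 act mainly through STAT3 and IL-1β through NF-κB.

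With the IL-23 mix, the 47 genes had a median of 88 reads in the KO library (50 to 1483) and 92 reads in the WT library (51 to 1910), and most of them were thus read at low levels. In 28 genes at least 1 of these libraries held under 100 reads. Cd93 and Ermn passed 1000 reads in each, and Ptpn14, Micall2 and Dcn had 300 to 1000. With the TGF-β mix, the sum over both libraries had a median of 2 reads, and Stfa2, Hspb1, Pmp22, Zbtb7c, P2ry12, Gsdma and Nyap2 were at 0 in both. Against a floor of 3 reads over both TGF-β libraries, those 7 genes were at least 38.5-fold higher (Gsdma) to at least 107-fold higher (Zbtb7c) in the IL-23 mix. The other 40 were 22.2-fold to 2330-fold higher with a median of 72.8-fold, and these ratios rest on 1 to 5 reads in the lower group. The ratio of Ermn, on 1 read, was 2330 with a 95% counting interval of 418 to 92088, and that of Cd93, on 2 reads, was 1763 with an interval of 488 to 14567.

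Per kilobase of exon, the scale on which genes can be compared, the highest levels in the IL-23 mix were those of Ermn at 20.2, Cd93 at 16.7, Stfa2 at 15.7, Guca1a at 11.2 and Micall2 at 9.20 CPM per kb (mean of the KO and WT libraries). Those 5 lay above 8.93 CPM per kb, the median of the 10360 genes with 50 or more reads in each IL-23 library and a known exon length. The median of the 47 was 1.64 CPM per kb and the lowest was Myo16 at 0.531 CPM per kb.

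**Figure D1:**
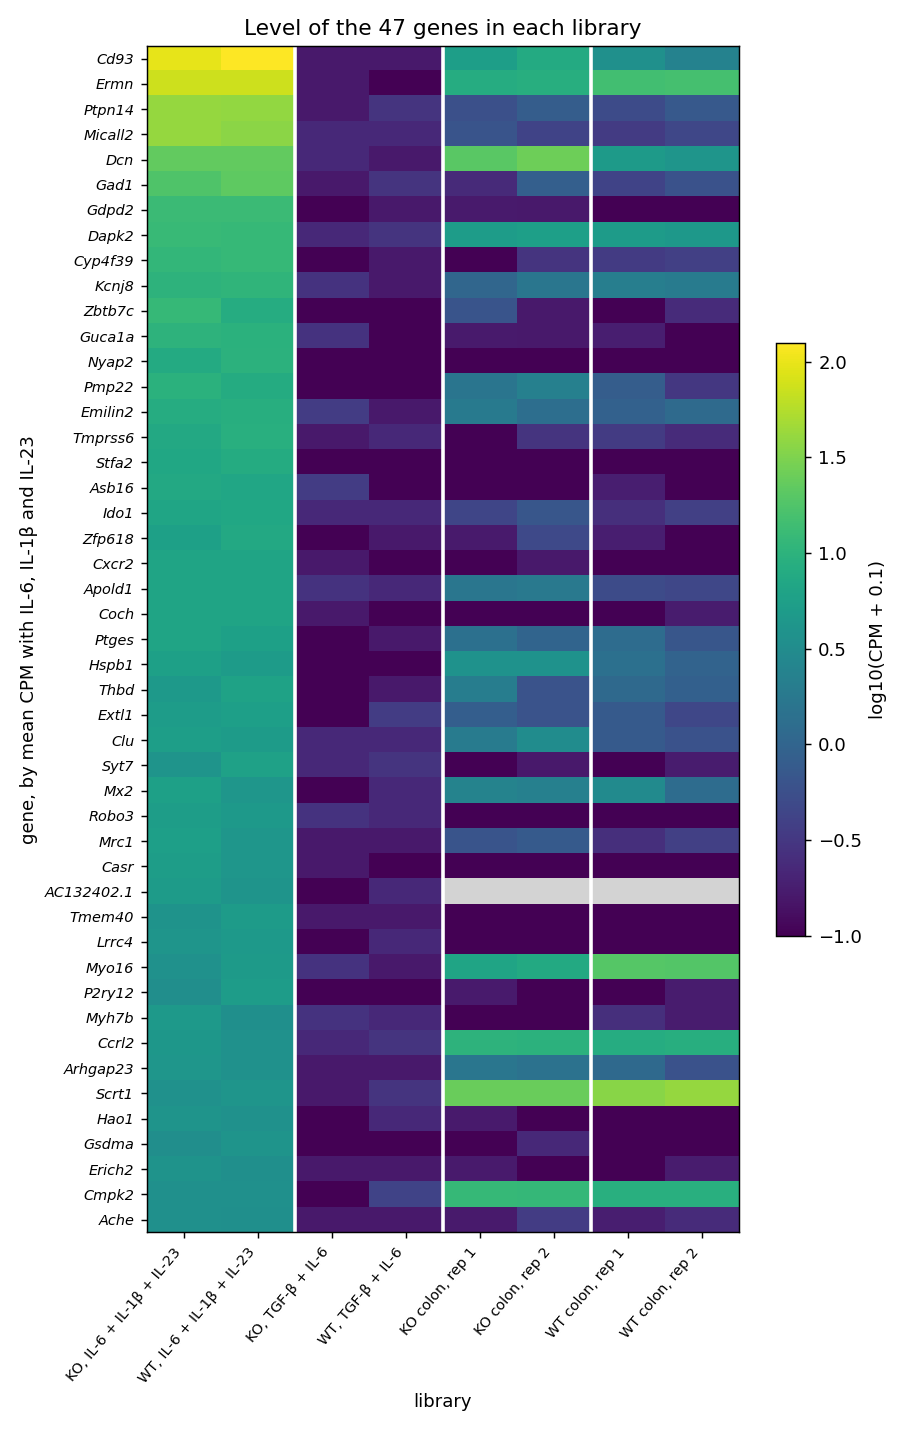
Level of each of the 47 genes (rows, ordered by mean CPM in the IL-23 mix) in the 8 libraries (columns), as log10 of CPM plus 0.1, with grey for AC132402.1, which was not analysed in the colon. The IL-23 columns are bright in every row and the TGF-β columns dark by the choice of genes, while the colon columns range from dark (Stfa2, Nyap2, Casr) to bright (Scrt1, Dcn, Myo16).

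Promoter sequences, 250 bases before to 50 bases after the start of transcription, were found for 34 of the 47 genes in RefSeq annotation of the mouse build GRCm38.p6, with 42 promoters in all. RORα binds the core letters AGGTCA, so this motif was searched on both strands. It was present in 6 of the 42 promoters (14.3%), against 16.3% of all 32851 promoters in the table, so its share among these genes was close to that of promoters in general. The 6 belonged to Asb16, Cxcr2, Guca1a, Myh7b, P2ry12 and Stfa2, whose KO/WT ratios in the IL-23 mix ranged from 0.642 (P2ry12) to 1.33 (Myh7b). The promoters of Cxcr2, P2ry12 and Stfa2 are shown because they hold the motif, and that of Ermn because it is the gene with the highest level per kilobase and does not hold it. Each is written on the strand of its gene, and capitals mark AGGTCA or its complement TGACCT.
Cxcr2, chr1:74153744-74154043, plus strand: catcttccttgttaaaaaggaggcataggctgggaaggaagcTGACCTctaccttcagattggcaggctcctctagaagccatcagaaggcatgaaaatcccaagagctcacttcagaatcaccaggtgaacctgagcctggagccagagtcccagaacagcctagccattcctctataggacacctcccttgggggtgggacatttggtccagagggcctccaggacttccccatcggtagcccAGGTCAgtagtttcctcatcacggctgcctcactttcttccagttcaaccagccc
P2ry12, chr3:59262936-59263235, minus strand: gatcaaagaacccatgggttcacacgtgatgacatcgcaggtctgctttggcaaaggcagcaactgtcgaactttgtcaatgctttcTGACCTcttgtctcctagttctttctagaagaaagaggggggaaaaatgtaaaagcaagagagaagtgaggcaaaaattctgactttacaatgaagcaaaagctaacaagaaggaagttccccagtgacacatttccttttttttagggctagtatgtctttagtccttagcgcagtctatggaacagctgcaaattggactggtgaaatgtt
Stfa2, chr16:36408314-36408613, minus strand: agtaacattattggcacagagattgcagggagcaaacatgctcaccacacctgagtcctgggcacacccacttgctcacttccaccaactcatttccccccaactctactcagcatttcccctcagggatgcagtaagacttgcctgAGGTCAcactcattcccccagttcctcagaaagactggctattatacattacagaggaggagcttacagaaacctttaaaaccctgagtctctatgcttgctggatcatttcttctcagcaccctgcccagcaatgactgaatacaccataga
Ermn, chr2:58052815-58053114, minus strand: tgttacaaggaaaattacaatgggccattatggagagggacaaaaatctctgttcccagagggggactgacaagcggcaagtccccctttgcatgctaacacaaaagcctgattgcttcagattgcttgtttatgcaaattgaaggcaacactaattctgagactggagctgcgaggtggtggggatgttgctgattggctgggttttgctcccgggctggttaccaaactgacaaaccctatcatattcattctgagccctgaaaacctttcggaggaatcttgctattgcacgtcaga

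Motifs of other factors, and the TATA box, were also searched on both strands. The AP-1 letters TGANTCA were in 1 of the 42 promoters (Tmem40), 2.38% against 7.81% of all promoters, and the STAT letters TTCNNNGAA in 2 (Apold1 and Emilin2), 4.76% against 8.30%. The RUNX letters TGTGGT were in 8 promoters of 7 genes, 19.0% against 16.8%, and the GATA letters AGATAA in 5, 11.9% against 11.2%. TATAAA was in 5 (Apold1, Asb16, Coch, Gad1 and Gdpd2), 11.9% against 13.6%. The SMAD palindrome GTCTAGAC and the CRE letters TGACGTCA were in none of the 42, against 0.213% and 1.79% of all promoters. These are matches of letters in short windows and not measured binding.

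Surface molecules known from myeloid and endothelial cells formed a group of 7. Cd93, a C-type lectin-like receptor of endothelial and myeloid cells at chr2:148436640-148443563 (mm10), had 1483 reads in the KO and 1910 in the WT library of the IL-23 mix, and 1 and 1 in those of the TGF-β mix. Thbd, which encodes the thrombin receptor thrombomodulin and lies 28.5 kb from Cd93, had 70 and 92 reads in the KO and WT libraries of the IL-23 mix and 0 and 1 with TGF-β. Mrc1, the macrophage mannose receptor CD206, had 84 KO and 63 WT reads with IL-23 and 1 and 1 with TGF-β. All 3 are usually read as markers of cells other than T cells, and all were read in both IL-23 libraries.

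Cxcr2, the receptor through which neutrophils follow CXC chemokines, had 99 reads in the KO and 96 in the WT library of the IL-23 mix, against 1 and 0 with TGF-β. Ccrl2, an atypical receptor that binds chemerin, had 66 KO and 54 WT reads with IL-23 and 2 and 3 with TGF-β. P2ry12, the ADP receptor of platelets and microglia, had 50 KO and 77 WT reads with IL-23 and none with TGF-β. Apold1, known as an early response gene of endothelium, had 98 KO and 96 WT reads with IL-23, against 3 and 2 with TGF-β. P2ry12 shares 9 exon bases with Med12l on the other strand, which had 303 KO and 260 WT reads with IL-23 and 16 and 22 with TGF-β. Whether reads were counted by strand is not known here, so reads over those 9 bases could belong to either gene.

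Of the markers of the cells in which these genes are best known, some were near 0 in culture and others were higher with IL-23. Of 10 macrophage genes (Csf1r, Adgre1, Cd14, Lyz2, C1qa, C1qb, C1qc, Fcgr1, Marco and Ms4a7), 7 were at 0 in all 4 culture libraries, and the list summed to 7 KO and 5 WT reads with IL-23 and 5 KO and 1 WT reads with TGF-β. A list of 9 neutrophil granule and receptor genes, S100a8 and S100a9 among them, summed to 4 KO and 1 WT reads with IL-23 and 0 KO and 1 WT reads with TGF-β, with 5 genes at 0 in all 4. A list of 7 endothelial genes, among them Cdh5, Kdr and Tek, summed to 16 KO and 6 WT reads with IL-23 and 6 KO and 2 WT reads with TGF-β. These short lists were chosen after values had been seen, and leave out the markers with more reads. Ly6g, a neutrophil surface marker, had 1466 KO and 1208 WT reads with IL-23 and 62 KO and 52 WT reads with TGF-β. Pecam1, an adhesion molecule of endothelium and leukocytes, had 1093 KO and 976 WT reads with IL-23 and 282 KO and 231 WT reads with TGF-β, and Egfl7, a secreted endothelial protein, had 75 KO and 69 WT reads with IL-23 and 59 KO and 39 WT reads with TGF-β. The full neutrophil list of 11 genes, which holds Cxcr2, thus summed to 102.3 CPM in the KO and 86.0 CPM in the WT library with IL-23, against 3.95 CPM in the KO and 3.36 CPM in the WT library with TGF-β. The full endothelial list of 9 genes summed to 77.2 CPM in the KO and 69.3 CPM in the WT library with IL-23, against 21.8 CPM in the KO and 17.2 CPM in the WT library with TGF-β. The full macrophage list of 13 genes, which holds Mrc1, summed to 70.8 CPM in the KO and 66.1 CPM in the WT library with IL-23, against 13.5 CPM in the KO and 14.8 CPM in the WT library with TGF-β. All 3 full lists were higher with IL-23, but few genes made up the sums. Ly6g gave most of the neutrophil sum with IL-23 and Pecam1 most of the endothelial sum. Most of the macrophage sum with IL-23 came from Ccr2 (37.5 CPM KO and 31.1 CPM WT) and Cd68 (27.4 CPM KO and 30.5 CPM WT). Cxcr2 and Mrc1 are higher with IL-23 by the choice of genes. The part of such cells in the levels of these genes was not tested.

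Secreted and matrix proteins made up 5 of the genes. Dcn, which encodes decorin, a proteoglycan that binds collagen and also TGF-β, at chr10:97479609-97518143, had 342 reads in the KO and 341 in the WT library of the IL-23 mix and 2 and 1 in those of the TGF-β mix. Stfa2, a stefin that inhibits cysteine proteases, had 105 KO and 120 WT reads with IL-23 and none with TGF-β. Its relatives Stfa1 and Stfa3 had 11 and 3 reads in the KO and 5 and 1 in the WT library with IL-23, and since stefin genes are near-identical, how reads were shared among them is uncertain. Emilin2, a glycoprotein of elastic fibres, had 127 KO and 130 WT reads with IL-23 and 4 and 1 with TGF-β.

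Coch, which encodes the matrix protein cochlin, had 98 KO and 96 WT reads in the IL-23 mix, and 1 and 0 in the TGF-β mix. Clu, the extracellular chaperone clusterin, had 83 KO and 74 WT reads with IL-23 and 2 and 2 with TGF-β. Dcn is also a fibroblast marker. A short list of 9 other fibroblast genes, also chosen after values had been seen (Col1a1, Col1a2, Col3a1, Pdgfra, Pdgfrb, Fn1, Sparc, Mgp and Postn) summed to 134 KO and 135 WT reads with IL-23 and 16 KO and 22 WT reads with TGF-β. Fn1 made up most of the IL-23 sum, with 93 KO and 98 WT reads with IL-23 and 8 KO and 14 WT reads with TGF-β. Of these 9, 2 were at 0 in all 4 culture libraries. The full fibroblast list of 13 genes, which holds Dcn and the widely expressed Vim, summed to 4550 CPM in the KO and 4849 CPM in the WT library with IL-23, against 1369 CPM in the KO and 1363 CPM in the WT library with TGF-β, and the part of such cells in the level of Dcn was not tested.

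Genes of adhesion, the cytoskeleton and signalling were the largest group with 9 members and held the highest counts besides Cd93. Ermn, whose product ermin binds actin and is known from oligodendrocytes, at chr2:58045113-58052864, had 1122 KO and 1120 WT reads with IL-23 and 1 and 0 with TGF-β. Ptpn14, a cytoplasmic tyrosine phosphatase that binds the transcriptional coactivator YAP, had 619 KO and 603 WT reads with IL-23 and 1 and 3 with TGF-β. Micall2, which works with Rab13 in the assembly of cell junctions, had 618 KO and 546 WT reads with IL-23 and 2 and 2 with TGF-β. In each of these 3 genes the KO and WT libraries were close to each other.

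Dapk2, a calcium- and calmodulin-dependent kinase linked to cell death, had 185 KO and 180 WT reads with IL-23 and 2 and 3 with TGF-β. Asb16, which carries a SOCS box, had 114 KO and 102 WT reads with IL-23 and 4 and 0 with TGF-β. Hspb1, the small heat shock protein HSP27, had 88 KO and 75 WT reads with IL-23 and none with TGF-β. The other 3, Myo16 (an unconventional myosin), Arhgap23 (a GTPase-activating protein) and Myh7b (a myosin heavy chain), had 52 to 73 reads in the IL-23 libraries. Myh7b shares 37 exon bases with Trpc4ap on the other strand, which had 3536 KO and 3428 WT reads with IL-23 and 2910 and 3176 with TGF-β.

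Ion channel and calcium-sensing genes numbered 3. Kcnj8, the Kir6.1 pore of an ATP-sensitive potassium channel, had 153 KO and 161 WT reads with IL-23 and 3 and 1 with TGF-β. The gene of its partner subunit SUR2, Abcc9, lies 16.2 kb away on chromosome 6 and had 1442 KO and 1569 WT reads with IL-23. Abcc9 missed the choice of genes by 1 read, with 3 KO and 3 WT reads in the TGF-β mix. Guca1a, a calcium-binding activator of the guanylate cyclase of photoreceptors, had 152 KO and 145 WT reads with IL-23 and 3 and 0 with TGF-β. Casr, the calcium-sensing receptor, had 79 KO and 63 WT reads with IL-23 and 1 and 0 with TGF-β.

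Genes best known from the nervous system numbered 7. Gad1, which makes the transmitter GABA from glutamate, had 271 KO and 321 WT reads with IL-23 and 1 and 3 with TGF-β. Pmp22, a protein of peripheral myelin, had 143 KO and 122 WT reads with IL-23 and none with TGF-β, and Nyap2, a neuronal adaptor of PI3-kinase, had 119 KO and 146 WT reads with IL-23 and none with TGF-β. Ache (acetylcholinesterase), Syt7 (a calcium sensor of vesicle fusion), Lrrc4 (a synaptic adhesion molecule) and Robo3 (an axon guidance receptor) had 51 to 89 reads in the IL-23 libraries. A list of 10 neuronal and glial markers summed to 1.43 CPM in the KO and 2.04 CPM in the WT library with IL-23, and to 2.26 CPM in the KO and 2.03 CPM in the WT library with TGF-β, so these markers were near 0 in both mixes.

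Enzymes of metabolism numbered 7. Gdpd2, a glycerophosphodiesterase, had 199 KO and 195 WT reads with IL-23 and 0 and 1 with TGF-β. Cyp4f39, a cytochrome P450 that acts on fatty acids, had 172 KO and 182 WT reads with IL-23 and 0 and 1 with TGF-β, and its relative Cyp4f13 had 246 KO and 233 WT reads with IL-23 and 85 and 82 with TGF-β. Ido1, which degrades tryptophan, had 101 KO and 105 WT reads with IL-23 and 2 and 2 with TGF-β. Ptges, the inducible synthase of prostaglandin E, had 97 KO and 87 WT reads with IL-23 and 0 and 1 with TGF-β. Tmprss6 (a membrane serine protease of iron control), Extl1 (a glycosyltransferase of heparan sulfate) and Hao1 (glycolate oxidase, best known from liver) had 54 to 136 reads in the IL-23 libraries.

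Transcription regulators numbered 3. Zbtb7c, a zinc finger protein of the POK family, had 182 KO and 126 WT reads with IL-23 and none with TGF-β. Zfp618 had 87 KO and 112 WT reads with IL-23 and 0 and 1 with TGF-β, and Scrt1, a neural repressor of the Snail family, had 56 KO and 61 WT reads with IL-23 and 1 and 3 with TGF-β. The interferon-inducible genes Mx2, annotated as a polymorphic pseudogene, and Cmpk2, a mitochondrial nucleotide kinase, had 86 and 54 reads in the KO and 63 and 53 in the WT library with IL-23. Mx1, the near relative of Mx2, had 23 KO and 26 WT reads with IL-23 and 7 and 5 with TGF-β. The remaining 4 were Gsdma, which encodes a pore-forming gasdermin, Erich2, Tmem40 and the antisense transcript AC132402.1, with 51 to 75 reads in the IL-23 libraries.

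By position, the 47 genes lay on 18 chromosomes, and a few lay near another gene of the same pattern. Besides Cd93 and Thbd, Gad1 and Erich2 were 12.2 kb apart on chromosome 2, and Stfa2 and Casr 85.2 kb apart on chromosome 16. P2ry14, a UDP-sugar receptor 62.7 kb from P2ry12, had 59 KO and 47 WT reads with IL-23 and 1 and 1 with TGF-β, which is just under the threshold. Cxcr1, the neighbour of Cxcr2 at 30.5 kb, had 257 KO and 259 WT reads with IL-23 and 11 and 12 with TGF-β.

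At the limits of the choice, Dapk2, Emilin2, Apold1 and Robo3 were just inside with 5 reads over the TGF-β libraries. Just outside with 6 were Abcc9, Mylk (713 KO and 627 WT reads with IL-23), Cavin1 (145 and 128) and Gab1 (103 and 170). On the side of the IL-23 mix, P2ry12, Ache, Gsdma and Erich2 were just inside with 50 to 52 reads in the lower library. Fn3k, Kdm4d, P2ry14 and Oasl2 were just outside with 45 to 48 reads.

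Receptor and pathway genes moved in both directions between the mixes. Among genes with 50 or more reads in a culture library, 13.5% were 2-fold or more higher and 9.99% 2-fold or more lower with IL-23 in both genotypes, on a scale of CPM plus 0.5. Of 14 chemokine receptors, 7 were higher, 4 lower and 3 neither. Cxcr2 and Ccrl2 are among the 7 by the choice of genes. Cxcr4 had 4427 KO and 4749 WT reads with IL-23 and 1084 and 1170 with TGF-β, whereas Ccr4 had 1387 KO and 1662 WT reads with IL-23 and 4495 and 4898 with TGF-β. Of 13 receptors for purines and eicosanoids 5 were higher, none was lower and 8 were neither. P2ry12 is among the 5 by the choice of genes. Of 15 genes of the IL-1 and IL-18 receptor family, 7 were higher, 2 lower and 6 neither, and of 14 genes of the IL-6, IL-12 and IL-23 receptor pathway 7 were higher, 1 lower and 6 neither. Of 19 genes associated with pathogenic Th17 cells, 11 were higher, 3 lower and 5 neither. Of 16 genes of the TGF-β pathway and response, 3 were higher, 1 lower and 12 neither. With 1 library per genotype and mix these counts carry no test.

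KO and WT levels in the IL-23 mix are compared as a description only, since the choice of genes had required 50 or more reads in both. The KO minus WT log2 ratio within that mix lay between -0.62 and 0.51 with a median of 0.01 over the 47, where the 10390 genes with 50 or more reads in each library ranged from -1.36 to 2.26. None of the 47 reached a 2-fold difference, against 12 of the 10390 (0.115%). That is close to the share of all genes and is not particular to the 47. The ratio was above 1 in 26 genes and below 1 in 21. Each ratio sets 1 library against 1, so the 95% interval covers counting error only and there is no test of genotype within the mix.

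In 5 genes that interval excluded 1. The share of all genes in which it does so was not computed, so nothing is read from this count. Zbtb7c was higher in KO cells, with 11.9 CPM against 8.31 CPM in WT cells and a ratio of 1.43 (1.13 to 1.81). Cd93 was lower in KO cells, with 96.7 CPM against 125.9 CPM in WT cells and a ratio of 0.768 (0.717 to 0.822). Gad1 had a ratio of 0.835 (0.708 to 0.984), Syt7 of 0.667 (0.472 to 0.935) and P2ry12 of 0.642 (0.441 to 0.929), each with fewer reads in the KO library. The genes with the narrowest intervals besides Cd93 were close to 1, since Ermn had 73.1 CPM in KO and 73.8 CPM in WT cells with a ratio of 0.991 (0.911 to 1.08), and Ptpn14 had 40.4 CPM in KO and 39.8 CPM in WT cells with a ratio of 1.02 (0.906 to 1.14).

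**Figure D2:**
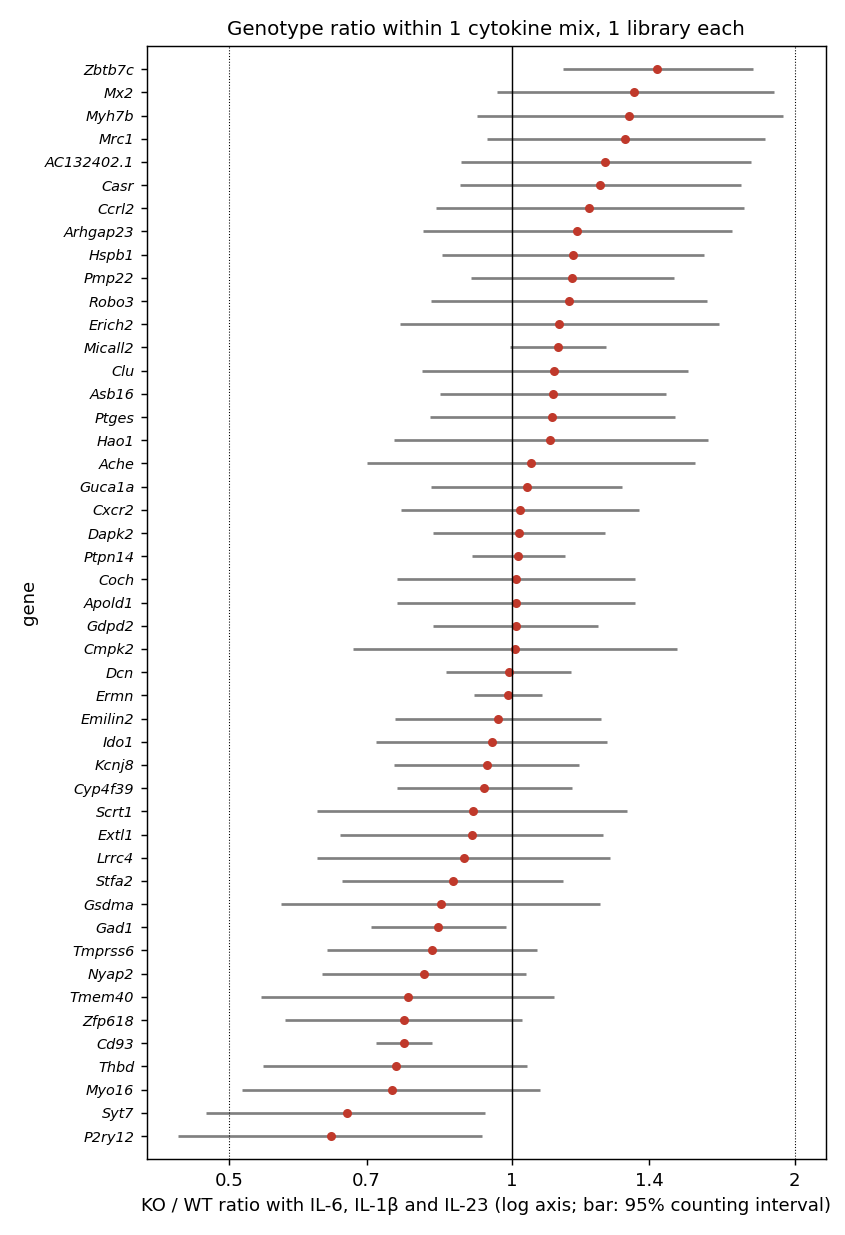
Ratio of KO to WT in the IL-23 mix for the 47 genes (rows) on a log axis, from 1 library each, with bars for the 95% counting interval. All points lie between the dotted lines at 0.5 and 2, and the bars of Zbtb7c, Gad1, Cd93, Syt7 and P2ry12 do not reach 1.

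Across both mixes, the KO minus WT difference was tested with edgeR's quasi-likelihood test over 13983 genes with a term for the mix, and for these genes it rests on the IL-23 pair. None of the 47 passed an adjusted p of 0.05, where 4 of the 13983 genes (0.0286%) did, and the fit has 1 residual degree of freedom. The test uses the same 4 libraries that chose the genes, and 1 library against 1 for most of its information, so nothing is read from this count. Cd93 alone passed an unadjusted threshold of 0.05 in that edgeR fit (log2 difference -0.38 ± 0.10 SE, adjusted p = 0.90). The count was also 0 by DESeq2.

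In CD4+ T cells from the colon, most of these genes were scarce. Of the 46 with a colon entry, 9 had 1 CPM or more in every colon library, which were Ermn, Cd93, Dcn, Dapk2, Ccrl2, Mx2, Scrt1, Cmpk2 and Myo16. Among all genes with 50 or more reads in each IL-23 library that share was 93.8% (9704 of 10346). Since most of the 46 are read at low levels in culture, the share was also taken over genes with a mean under 200 reads in the IL-23 mix, and was then 6 of 40 genes, against 79.4% of such genes in general (1867 of 2352). The genes of both reference shares were not required to be silent with TGF-β, as the 46 were. How much of the contrast follows from that choice was not tested. In a bulk sample, fewer cells of a type that express a gene and less RNA per cell cannot be told apart.

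The colon mean was 10% or less of the mean in the IL-23 mix for 28 genes, and the median was 2.15%. Stfa2, Tmem40, Lrrc4, Casr, Robo3 and Nyap2 had no read in any of the 4 colon libraries, and 17 genes, these 6 included, had 5 or fewer in all. A count of 0 allows up to 3 reads in a library, for counting error only. Some of the genes with the highest culture levels were among the scarce ones. Ptpn14 had 7 and 11 reads in the KO and 5 and 9 in the WT colon, 1.4% of its mean CPM in the IL-23 mix. Micall2 had 8 and 5 reads in the KO and 3 and 5 in the WT colon, or 0.964%, and Gad1 had 2 and 12 in the KO and 4 and 7 in the WT colon, or 2.24%.

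The same held for Gdpd2, with 1 and 1 reads in the KO and 0 and 0 in the WT colon, and for Cyp4f39, with 0 and 3 in the KO and 3 and 4 in the WT colon. Guca1a had 1 and 1 reads in the KO and 1 and 0 in the WT colon, and Zbtb7c had 8 and 1 in the KO and 0 and 2 in the WT colon. None of these 4 genes could be compared between genotypes at this depth. Among the receptors, Cxcr2 had 0 and 1 reads in the KO and 0 and 0 in the WT colon, P2ry12 had 1 and 0 in the KO and 0 and 1 in the WT colon, and Mrc1 had 8 and 10 in the KO and 2 and 4 in the WT colon.

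The other genes not tested in the colon had few reads there too. Extl1 had 11 and 8 reads in the KO and 8 and 5 in the WT colon, and Ido1 had 5 and 9 in the KO and 2 and 4 in the WT colon. Asb16, Tmprss6, Coch, Hao1, Gsdma, Erich2, Ache, Zfp618, Syt7 and Myh7b had 0 to 6 reads in each colon library.

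In contrast, 4 genes had a higher mean CPM in the colon than in the IL-23 mix. Scrt1 stood at 814% of its culture mean, Myo16 at 307%, Cmpk2 at 294% and Ccrl2 at 231%. Per kilobase of exon, Scrt1 had the highest colon level of the 46 at 7.13 CPM per kb, followed by Ccrl2 at 3.495 and Ermn at 3.19 CPM per kb. Dcn, Hspb1, Mx2, Dapk2 and Clu had colon means of 61.3%, 44.9%, 43.7%, 41.6% and 29.6% of their culture means. Ermn and Cd93, the leading genes of the IL-23 mix, were at 15.8% and 4.24%.

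**Figure D3:**
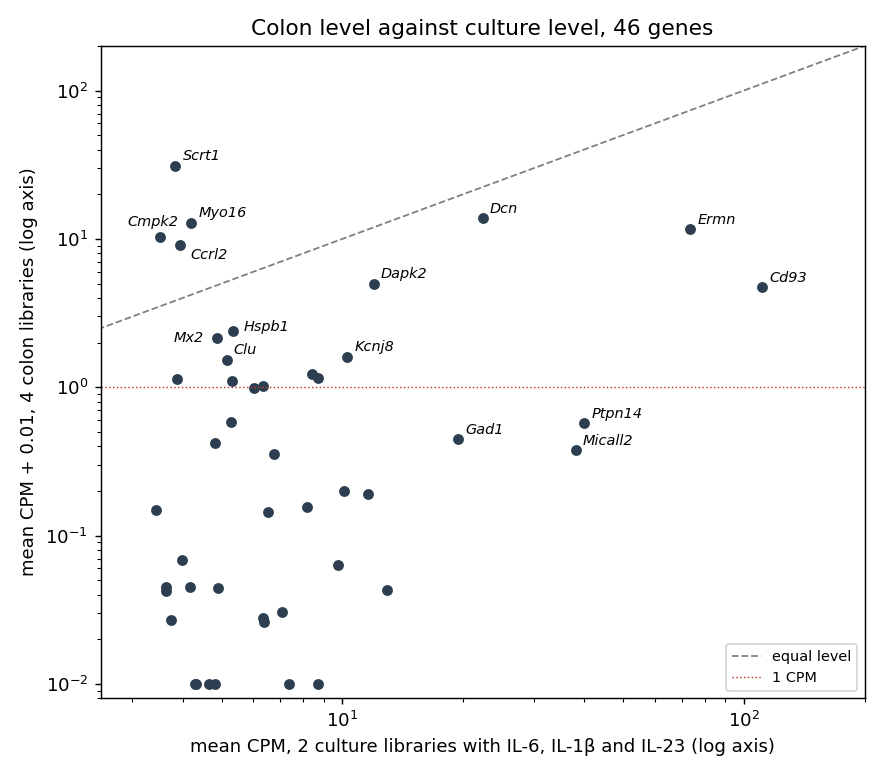
Mean CPM over the 4 colon libraries plus 0.01 against mean CPM over the KO and WT libraries of the IL-23 mix, both on log axes, for the 46 genes with a colon entry. Scrt1, Myo16, Cmpk2 and Ccrl2 lie above the dashed line of equal level, and most points lie under the dotted line at 1 CPM.

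The colon libraries were not used to choose the genes, so KO and WT colon cells could be compared with edgeR's quasi-likelihood test. Of the 46 genes, 18 passed the filter on low counts and were tested. In KO colon cells Dcn, Hspb1, Clu, Apold1, Cd93, Pmp22 and Cmpk2 rose, Myo16, Scrt1 and Ermn fell, and 8 did not pass an adjusted p of 0.05. Those are 10 of the 18 tested, a count that the filter bears on as given next, in a comparison in which 39.5% of the 13101 genes tested passed (19.6% higher and 19.9% lower). Scaling by library totals alone would give 4291 genes higher and 1257 lower in KO colon cells, against 2566 and 2607 as reported, and moves the median log2 difference of all genes to 0.21, against 0.01.

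The filter needs 0.709 CPM in enough libraries, and 6 of the 18 passed it through 1 genotype only. Apold1, Clu, Pmp22, Arhgap23 and Ptges passed only through the KO libraries and Thbd only through the WT libraries, so a difference in that direction was favoured by the filter. With no filter, Apold1 (adjusted p = 1.2e-04), Clu (6.8e-07) and Pmp22 (7.1e-05) passed in the edgeR fit as well. Over the 12 genes that pass through either genotype alone, 4 rose and 3 fell. In 15 of the 18 the KO and WT libraries did not overlap, against 70.5% of all genes tested. The colon groups have 2 libraries each, and since nothing in the labels says that they came from separate mice, the p-values reflect library-to-library spread that may be technical.

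Dcn showed the largest colon difference of the 18, with 297 and 399 reads in the KO and 59 and 57 in the WT libraries. This was 20.3 and 25.8 CPM in KO colon cells against 4.80 and 4.07 CPM in WT colon cells, means of 23.0 ± 3.9 and 4.44 ± 0.51 CPM (SD, n = 2 each). The log2 difference was 2.38 ± 0.17 (SE), with an edgeR adjusted p of 3.5e-06. In the IL-23 mix the same gene had 22.3 CPM in KO and 22.5 CPM in WT cells.

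Reads of Clu, Hspb1 and Pmp22 were higher in KO colon cells too. Clu had 1.84 and 3.10 CPM in KO colon cells and 0.651 and 0.50 CPM in WT colon cells, a log2 difference of 2.10 ± 0.42 (SE; edgeR adjusted p = 0.0021). Hspb1 had 3.68 and 3.75 CPM in KO colon cells and 1.30 and 0.858 CPM in WT colon cells, a log2 difference of 1.79 ± 0.29 (SE; edgeR adjusted p = 6.7e-04). Pmp22 had 22 and 33 reads in the KO and 9 and 3 in the WT libraries, a log2 difference of 1.97 ± 0.50 (SE; edgeR adjusted p = 0.0086). All 3 had no overlap between the genotypes. Without the second WT library Pmp22 no longer passed (log2 difference 1.30, adjusted p = 0.075, the highest over the alternatives, with the lowest at 7.1e-05), and without the first WT library its log2 difference was 3.03.

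Among the surface molecules, Cd93 rose in KO colon cells, and so did Apold1, which entered the test through its KO libraries alone. Cd93 had 79 and 119 reads in the KO and 43 and 32 in the WT libraries, or 5.39 and 7.70 CPM against 3.5 and 2.29 CPM, a log2 difference of 1.19 ± 0.26 (SE; edgeR adjusted p = 0.0036). Apold1 had 23 and 26 reads in the KO and 5 and 5 in the WT libraries, a log2 difference of 2.07 ± 0.44 (SE; edgeR adjusted p = 0.0032). Ccrl2 had 145 and 149 reads in the KO and 101 and 120 in the WT libraries, and its log2 difference of 0.22 did not pass (adjusted p = 0.28), though it did with library totals (0.41, adjusted p = 0.047, with 0.047 to 0.60 over the alternatives). Thbd, the neighbour of Cd93, had 29 and 8 reads in the KO and 13 and 11 in the WT libraries, so its groups overlapped (log2 difference 0.43, adjusted p = 0.58), and its log2 difference was -0.83 without the first and 1.09 without the second KO library.

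Markers of other cell types moved with these rises. The 9 fibroblast genes named above summed to 147 and 127 CPM in the KO and 46.04 and 39.96 CPM in the WT colon libraries. The 7 endothelial genes summed to 10.5 and 10.8 CPM in the KO and 3.498 and 3.29 CPM in the WT libraries. The 10 macrophage genes summed to 62.3 and 59.4 CPM in the KO and 42.8 and 39.0 CPM in the WT libraries. In all 3 short lists both KO libraries lay above both WT libraries. These lists were chosen after values had been seen, and 70.5% of all single genes tested in the colon did not overlap between the genotypes. The full lists were led by genes that T cells also express, and summed to 2243 and 2131 CPM in the KO and 2878 and 2685 CPM in the WT libraries for fibroblasts, to 110.6 and 107.1 CPM in the KO and 108.3 and 102.5 CPM in the WT libraries for endothelium, and to 196.8 and 219.9 CPM in the KO and 134.4 and 141.1 CPM in the WT libraries for macrophages. The neutrophil genes summed to 2.25 and 2.85 CPM in the KO and 1.55 and 2.502 CPM in the WT libraries, so these overlapped.

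Over the full lists, 10 of 13 fibroblast markers (Dcn included), 7 of 10 macrophage markers, 4 of 6 endothelial markers, 8 of 9 epithelial markers and 6 of 7 B and plasma cell markers tested in the colon rose in KO cells. Of all genes tested in the colon, 19.6% rose and 19.9% fell. Of 6 dendritic cell markers 3 rose and 2 fell, and of 10 NK and innate lymphoid markers 4 rose and 3 fell. Of 6 CD8 and gamma-delta T markers 2 rose and 2 fell, and of 5 mast and basophil markers 4 rose and 1 fell. The neutrophil, eosinophil and neuronal lists had 1 tested gene each, which did not pass. Of 16 conventional T cell markers, 1 rose and 12 fell. The B and plasma cell list summed to 2093 and 2276 CPM in the KO and 598 and 585 CPM in the WT libraries, and the epithelial list to 132 and 132 CPM in the KO and 49.7 and 46.6 CPM in the WT libraries. The part of such cells in the colon differences of Dcn, Clu, Hspb1, Pmp22, Cd93 and Apold1 was not tested.

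Cmpk2, the interferon-inducible kinase, had 11.9 and 11.6 CPM in KO colon cells and 8.87 and 8.86 CPM in WT colon cells, a log2 difference of 0.40 ± 0.14 (SE; edgeR adjusted p = 0.045). This call was lost in 6 of the 9 alternatives, over which the adjusted p was 0.0068 to 0.23, with an adjusted p of 0.23 by DESeq2, 0.089 with no filter on low counts and 0.099 to 0.13 without any 1 colon library. Mx2, the other interferon-inducible gene, had 34 and 33 reads in the KO and 36 and 16 in the WT libraries and did not pass (log2 difference 0.16, adjusted p = 0.77). Its log2 difference was 0.94 without the first and -0.40 without the second WT library.

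The 3 genes that fell belong to the cytoskeleton and transcription groups. Myo16 had 94 and 115 reads in the KO and 235 and 260 in the WT libraries, or 6.41 and 7.44 CPM against 19.1 and 18.6 CPM, a log2 difference of -1.44 ± 0.14 (SE; edgeR adjusted p = 2.6e-05). Ermn had 121 and 133 reads in the KO and 175 and 214 in the WT libraries, or 8.25 and 8.60 CPM against 14.2 and 15.3 CPM, a log2 difference of -0.81 ± 0.14 (SE; edgeR adjusted p = 0.0011). Scrt1 had 24.5 and 24.6 CPM in KO colon cells and 35.0 and 40.9 CPM in WT colon cells, a log2 difference of -0.63 ± 0.11 (SE; edgeR adjusted p = 9.3e-04). In all 3 both KO libraries lay under both WT libraries. The sum of conventional T cell markers was also lower in the KO colon, as given above, and its part in these falls was not tested.

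**Figure D4:**
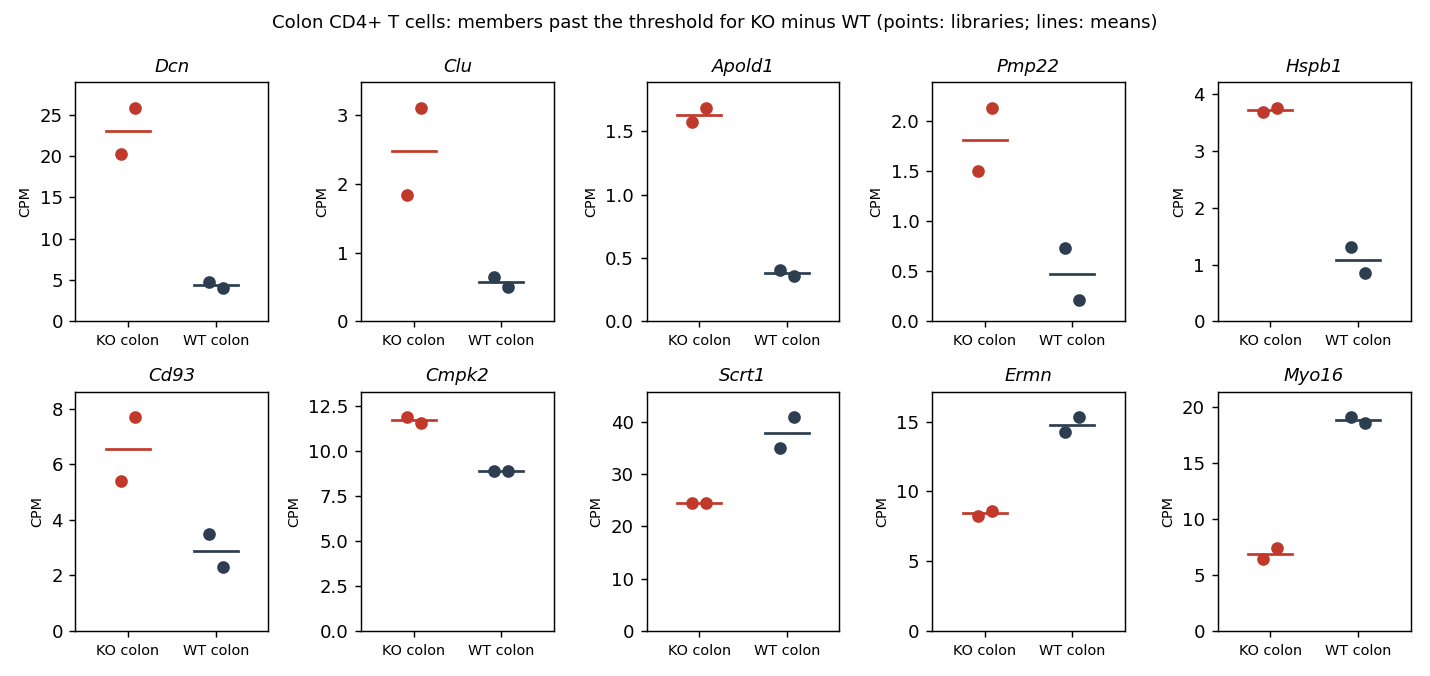
CPM in each colon library (points) and the group mean (lines) for the 10 genes that passed an adjusted p of 0.05, with KO left of WT and each axis starting at 0. Dcn, Clu, Apold1, Pmp22, Hspb1, Cd93 and Cmpk2 are higher in both KO libraries than in both WT libraries, and Scrt1, Ermn and Myo16 are lower.

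The remaining tested genes did not pass. Dapk2 had 75 and 86 reads in the KO and 60 and 61 in the WT colon (log2 difference 0.21, adjusted p = 0.41), and Kcnj8 had 14 and 24 in the KO and 25 and 26 in the WT colon (-0.62, adjusted p = 0.17). Arhgap23, with 23 and 21 reads in the KO and 13 and 7 in the WT colon (0.93, adjusted p = 0.11), and Emilin2, with 26 and 19 in the KO and 10 and 15 in the WT colon (0.65, adjusted p = 0.20), did not overlap between genotypes. Ptges had 19 and 14 reads in the KO and 14 and 8 in the WT colon (0.38, adjusted p = 0.54), and its log2 difference was 0.92 without the first and -0.06 without the second WT library. A p that misses the threshold does not show that the genotypes were alike.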

How the data were processed

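Each deposited file held 1 library's raw counts of reads per gene, per the file headers. Per the submitters' processing notes, Trim Galore, Bowtie2, featureCounts, edgeR and DESeq2 were used with build mm10, and no source used here gave the strand setting, annotation release or versions. Colon entries (54446, Ensembl identifiers) were joined with culture entries (55341, symbols) through GENCODE M21 for 54192 genes. AC132402.1 was not analysed in the colon.

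CPM was computed from the deposited counts with TMM scaling, and p-values with edgeR 4.0.16 (glmQLFit, glmQLFTest, filterByExpr) in R 4.3.3, adjusted by Benjamini-Hochberg over all genes tested at 0.05. The colon was fitted alone (2 against 2), culture with terms for mix and genotype, and all 8 libraries for the colon effect minus the culture effect. Intervals are exact binomial at 95% and cover counting error only. Alternatives were other scalings, no filter, DESeq2 1.42.0, libraries left out, a replicate block and other thresholds.

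All members are named. Values in every library go to the 12 highest, those past the threshold and those in a gene list. Members and lists were chosen with earlier results of these data known, and gene roles were written from general knowledge. Some genes of these lists are not reported here.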

Additional observations from a re-analysis of the deposited data

Results flagged for a closer look

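The KO minus WT difference in the colon was compared with that in culture in one edgeR quasi-likelihood fit of all 8 libraries, in which culture had 1 library for each genotype and mix. Of 46 genes tested, 7 differed past an adjusted p of 0.05, where 17.3% of the 14958 genes tested did. The culture side of this difference comes from the libraries that chose the genes, and most of the 46 entered the test through the IL-23 libraries. Nothing is therefore read from the count. The values and p-values of single genes that follow carry the same limit and are given as a description.

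For Dcn the colon effect exceeded the culture effect by 2.38 on the log2 scale (SE 0.26, edgeR adjusted p = 9.6e-05), with 20.3 and 25.8 CPM in the KO and 4.80 and 4.07 CPM in the WT colon, against 22.3 CPM in KO and 22.5 CPM in WT cells of the IL-23 mix. For Apold1 it exceeded it by 2.02 (SE 0.51, adjusted p = 0.014) and for Clu by 1.96 (SE 0.53, adjusted p = 0.021). For Hspb1 the difference was 1.58 (SE 0.45, adjusted p = 0.027).

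Cd93 had 96.7 CPM in KO and 125.9 CPM in WT cells of the IL-23 mix, 1 library each and not past the threshold in culture, and was higher in both KO than in both WT colon libraries. Its effects differed by 1.57 (SE 0.28, edgeR adjusted p = 0.0018). The colon effect was below the culture effect by a log2 difference of -0.81 for Ermn (SE 0.20, edgeR adjusted p = 0.012) and of -1.11 for Myo16 (SE 0.34, edgeR adjusted p = 0.035). The 9 fibroblast genes of the short list summed to 147 and 127 CPM in the KO and 46.04 and 39.96 CPM in the WT colon, and to 8.74 CPM in KO and 8.90 CPM in WT cells of the IL-23 mix, and their part in these differences was not tested.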

How the results depend on the processing

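The number of genes chosen follows the thresholds: 82 with 10 or fewer reads allowed in the TGF-β mix, 7 with none, 19 with 100 or more and 77 with 30 or more required in each IL-23 library, against 47. At 0.5 CPM 16 genes, and at 5 CPM 5 genes, reached the minimum in every colon library, against 9 at 1 CPM, where the share of all genes was 96.2% and 80.5%. The count past the threshold in the colon was 10, 9 to 11 under other scalings, no filter and DESeq2, and 8 to 9 without any 1 colon library. The numbers of the colon libraries do not pair mice in the labels (correlation of same-numbered deviations 0.15). With the replicate block 10 genes passed, the same 10, and 6230 against 5173 over all genes. DESeq2 called 3658 of these genes. For the colon effect minus the culture effect, the count was 7, but 3 by DESeq2 (Dcn, Ermn and Cd93), which gave no adjusted p to Hspb1, Clu and Apold1 and 0.10 to Myo16, and 5 to 7 without any 1 colon library. DESeq2 called 1773 genes there, against 2582. Hspb1 lost that call without the second WT (adjusted p = 0.092) or second KO library (0.059), Clu likewise (0.061 and 0.092), and Myo16 with library totals (0.072) and without the first WT (0.052) or first KO library (0.070), while Pmp22 passed with no filter (0.010), with library totals (0.034) and without the first WT (0.013) or first KO library (0.042). For single genes that had passed as reported, 143 alternatives were compared, without those of Hspb1, Clu and Apold1 that had no adjusted p. Of these, 128 kept direction and call, 15 kept direction only and 0 reversed, and the cause of the losses was not tested. Genes that had not passed were outside this tally, and Thbd, Mx2 and Ptges turned sign when a colon library was left out, as given above. In culture, 0 genes passed under each alternative and 0 reached 2-fold within the IL-23 mix. Low counts, 2 libraries a group in the colon and 1 per genotype and mix in culture limit what can be seen.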
